A study of Homo sapiens with 6 samples.

Results

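SLC7A11, SLC3A2, SLC7A5 and CHAC1 encode a small chain of proteins that bring cystine and other amino acids into the cell and take glutathione apart. These 4 genes were taken by symbol from a table of 6339 rows of gene expression in ME-1 cells. ME-1 is a line of human acute myeloid leukaemia in which inv(16) joins CBFB to MYH11, giving the fusion protein CBFβ-SMMHC. Its cells received either 1 µM AI-10-49, an inhibitor made to keep CBFβ-SMMHC from RUNX1, or the solvent DMSO for 6 h, and RNA was sequenced from 3 AI-10-49 libraries and 3 DMSO libraries. The labels state that the experiments were independent, and all cells came from this 1 line. The 4 genes were proposed because they were higher with AI-10-49 in these same libraries, so their difference between the groups is a description and carries no test.

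SLC7A11, the light chain xCT, and SLC3A2, the heavy chain CD98, form system xc-, which takes up cystine in exchange for glutamate. Cystine is reduced to cysteine, the amino acid that usually limits glutathione synthesis. SLC3A2 also pairs with SLC7A5, the light chain LAT1, to exchange leucine and other large neutral amino acids, and CHAC1 is a cytosolic enzyme that cleaves glutathione at its gamma-glutamyl bond. All 4 are known targets of ATF4, the transcription factor of the integrated stress response, and SLC7A11 is also a known target of NRF2, the regulator of the antioxidant response.

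The windows at the gene starts are shown as a description. The 4 genes were chosen because they were higher with the inhibitor, so their joint rise was fixed by that choice. Whether they share a regulator was not tested. The windows come from RefSeq on build GRCh38.p14 (250 bases before to 50 after a gene start) and were matched by symbol. Windows were found for 3 of the 4 genes, all but SLC7A11. Capitals mark matches on either strand to the C/EBP-ATF response element TGATGNAAN, the antioxidant response element core TGACNNNGC or the E-box CACGTG, which MYC and its partners can bind.
CHAC1: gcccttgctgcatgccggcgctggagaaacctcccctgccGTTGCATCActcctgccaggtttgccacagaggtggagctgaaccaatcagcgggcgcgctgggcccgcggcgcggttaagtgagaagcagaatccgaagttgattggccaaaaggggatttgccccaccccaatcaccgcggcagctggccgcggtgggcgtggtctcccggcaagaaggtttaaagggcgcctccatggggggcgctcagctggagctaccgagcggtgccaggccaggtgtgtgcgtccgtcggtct
SLC3A2: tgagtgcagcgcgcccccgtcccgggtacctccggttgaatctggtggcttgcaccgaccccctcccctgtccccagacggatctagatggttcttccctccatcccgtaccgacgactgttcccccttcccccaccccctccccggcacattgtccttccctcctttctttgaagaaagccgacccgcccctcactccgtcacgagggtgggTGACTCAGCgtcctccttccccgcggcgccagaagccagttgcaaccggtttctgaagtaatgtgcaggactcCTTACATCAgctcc
SLC7A5: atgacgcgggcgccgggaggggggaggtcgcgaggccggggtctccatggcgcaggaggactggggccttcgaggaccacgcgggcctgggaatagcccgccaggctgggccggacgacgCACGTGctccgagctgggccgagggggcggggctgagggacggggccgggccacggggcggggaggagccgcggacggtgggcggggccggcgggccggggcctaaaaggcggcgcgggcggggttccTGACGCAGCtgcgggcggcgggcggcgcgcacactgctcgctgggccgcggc
The CHAC1 window, chr15:40953221-40953520 on the plus strand, held 1 match, the site GTTGCATCA at 210 bases before the gene start, which reads TGATGCAAC on the other strand. SLC3A2 has 3 windows in the table, and the one shown, chr11:62881449-62881748 on the plus strand, was the only one of them with a match. It held the antioxidant core TGACTCAGC at 37 bases before the start and CTTACATCA, which reads TGATGTAAG on the other strand, at 36 bases after it. The SLC7A5 window, chr16:87869458-87869757 on the minus strand, held the E-box CACGTG at 130 bases before the start and the antioxidant core TGACGCAGC at 2 bases before it, with no letters of the C/EBP-ATF element. Of all 35116 windows in the table, 3.61% held the C/EBP-ATF element, 13.3% the antioxidant core and 7.26% the E-box. None of the 3 motifs overlapped another in these windows.

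Expression was deposited as FPKM, which divides fragments by transcript length and by library total. Levels of different genes in a library can thus be set side by side, with a limit for AI-10-49 replicate 2 given below. The rule that selected the rows of the table is not stated in the labels, and 5939 of 6230 tested rows (95.3%) passed a limma adjusted p of 0.05, 46.2% higher and 49.1% lower with AI-10-49. AI-10-49 replicate 2 stands apart: its highest value was 159 FPKM, against 1843 and 1877 FPKM in AI-10-49 replicates 1 and 3 and 1717 to 2028 FPKM in DMSO libraries, while its median of 14.7 FPKM was close to the 14.3 to 14.6 FPKM of the others. Of 17 myeloid marker genes 10 had a row, with a summed level of 269 to 384 FPKM with AI-10-49 and 488 to 536 FPKM with DMSO. CD79A and CD79B of 5 B lymphoid markers summed to 8.72 to 10.6 FPKM with AI-10-49 and 24.8 to 30.0 FPKM with DMSO, and CD3D, CD3E and CD4 of 5 T lymphoid markers to 29.3 to 31.1 FPKM with AI-10-49 and 48.3 to 50.03 FPKM with DMSO. Of 6 eosinophil markers 5 had a row, with a summed level of 89.2 to 112 FPKM with AI-10-49 and 405 to 480 FPKM with DMSO, and markers of erythroid, fibroblast and epithelial cells were not analysed here. The part of these genes in the values below was not tested.

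SLC7A11 was nearly silent with DMSO and well expressed with AI-10-49. Its level was 22.5, 23.4 and 24.3 FPKM in the AI-10-49 libraries and 1.00, 1.00 and 0.765 FPKM in the DMSO libraries. Every AI-10-49 library read far above every DMSO library, and AI-10-49 replicate 2 lay between the other two. The means were 23.4 ± 0.91 FPKM with AI-10-49 and 0.923 ± 0.14 FPKM with DMSO (SD, n = 3 each), a ratio of 25.4. The log2 fold change was 3.67 ± 0.08 (SE) on the log2(FPKM + 1) scale, on which fold changes are given throughout and which understates the change of low genes. It ranked 1 of the 6230 tested rows, and 2 without AI-10-49 replicate 2. In bulk RNA a higher level does not tell more RNA per cell from more cells that express the gene.

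CHAC1 had the lowest level of the set in both groups. It stood at 10.5, 10.2 and 9.85 FPKM in the AI-10-49 libraries and at 0.449, 0.488 and 0.213 FPKM in the DMSO libraries. The AI-10-49 libraries lay close together and far above all DMSO libraries, among which replicate 3 was the lowest. The means were 10.2 ± 0.31 FPKM with AI-10-49 and 0.383 ± 0.15 FPKM with DMSO (SD, n = 3 each), a ratio of 26.5, close to that of SLC7A11. Because its DMSO level is so low, its log2 fold change of 3.02 ± 0.10 (SE), rank 8 of all tested rows and 11 without AI-10-49 replicate 2, moved to 4.46 with a pseudocount of 0.1, and that of SLC7A11 to 4.53. SLC7A11 and CHAC1 entered the tested rows through their AI-10-49 level alone, since both averaged under 1 FPKM with DMSO.

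SLC3A2, the heavy chain that both light chains need to reach the plasma membrane, was the most abundant of the set in each library. It stood at 492, 126 and 495 FPKM in AI-10-49 replicates 1, 2 and 3, and at 76.1, 79.3 and 82.7 FPKM in the DMSO libraries. All AI-10-49 libraries were above all DMSO libraries, but AI-10-49 replicate 2 read far below the other two of its group. The means were 371 ± 212 FPKM with AI-10-49 and 79.4 ± 3.30 FPKM with DMSO (SD, n = 3 each), a ratio of 4.67, and the log2 fold change was 1.97 ± 0.49 (SE), rank 52. Without AI-10-49 replicate 2 the AI-10-49 mean was 493 FPKM, the ratio 6.22 and the log2 fold change 2.62 ± 0.07 (SE), rank 25.

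SLC7A5, the leucine-transporting light chain, stood at 78.6, 55.0 and 74.7 FPKM in AI-10-49 replicates 1, 2 and 3, and at 23.7, 24.8 and 25.0 FPKM in the DMSO libraries. All AI-10-49 libraries were above all DMSO libraries, with AI-10-49 replicate 2 the lowest of its group. The means were 69.4 ± 12.7 FPKM with AI-10-49 and 24.5 ± 0.71 FPKM with DMSO (SD, n = 3 each), a ratio of 2.84. The log2 fold change was 1.45 ± 0.12 (SE), rank 120, and 1.61 ± 0.06 (SE), rank 107, without AI-10-49 replicate 2.

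**Figure D1:**
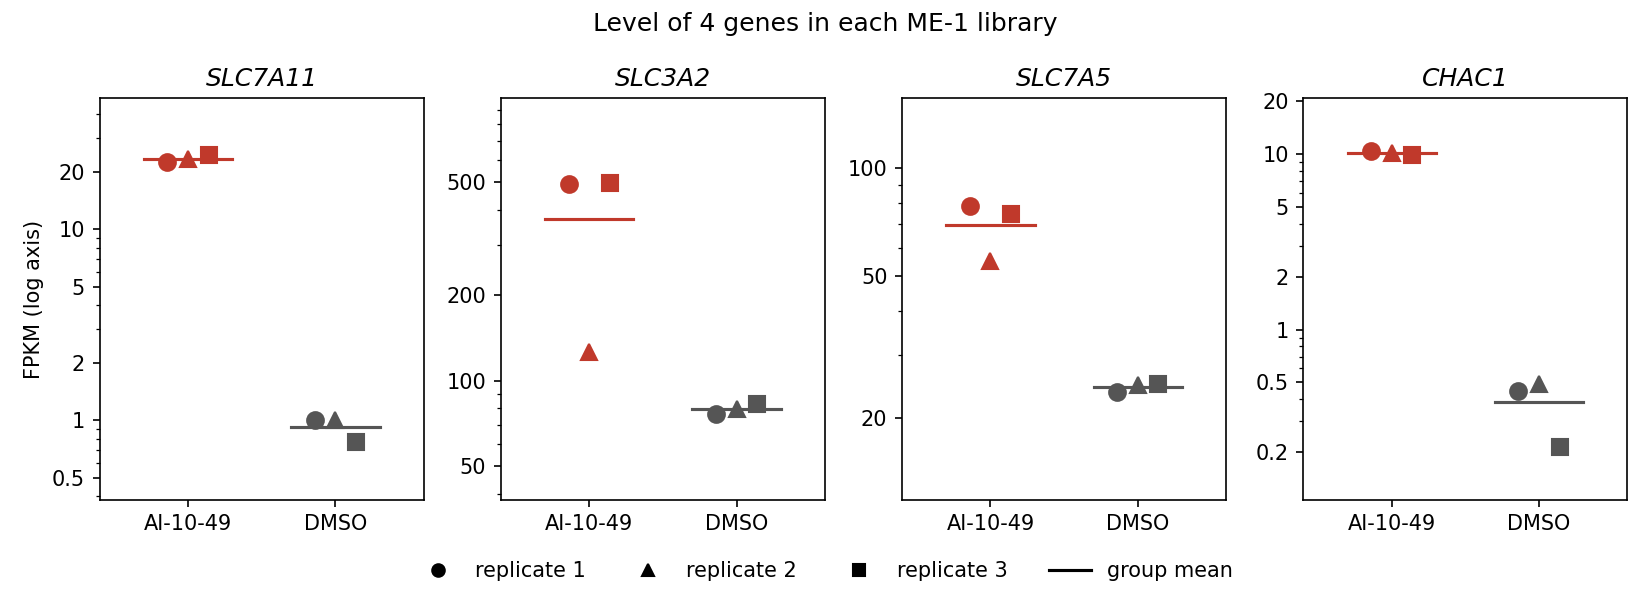
FPKM on a log axis of the 4 genes in the 3 AI-10-49 libraries (red, left) and the 3 DMSO libraries (grey, right), with marker shape for the replicate number and horizontal lines for group means. The groups lie apart in each gene, and AI-10-49 replicate 2 is low in SLC3A2 (126 FPKM) and SLC7A5 (55.0 FPKM) but not in SLC7A11 (23.4 FPKM) or CHAC1 (10.2 FPKM).

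In all 4 genes every AI-10-49 library lay above every DMSO library, and groups were likewise apart in 96.2% of all tested rows (45.1% with AI-10-49 higher). Since the genes were chosen on this contrast, nothing is read from that count. The order of levels was the same in both groups, SLC3A2 above SLC7A5 above SLC7A11 above CHAC1, and no neighbours in that order overlapped within a group.

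AI-10-49 replicate 2 read low mostly in abundant rows, with a wide spread among rows of like level. Its ratio to the mean of AI-10-49 replicates 1 and 3 was 0.255 for SLC3A2, and 40 other rows within 2-fold of that SLC3A2 level had a median ratio of 0.299 and a range of 0.166 to 0.381. SLC7A5 had a ratio of 0.717, against a median of 0.748 and a range of 0.0385 to 0.999 in 1127 rows of like level. SLC7A11 and CHAC1, at lower levels, had ratios of 1.00 and 1.01, against a median of 0.958 in 2656 rows (range 0.175 to 1.44) and of 1.05 in 2461 rows (range 0 to 1.47). In DMSO replicate 2 the ratio of SLC3A2 was 0.998, and rows of like level had a median of 0.950.

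**Figure D2:**
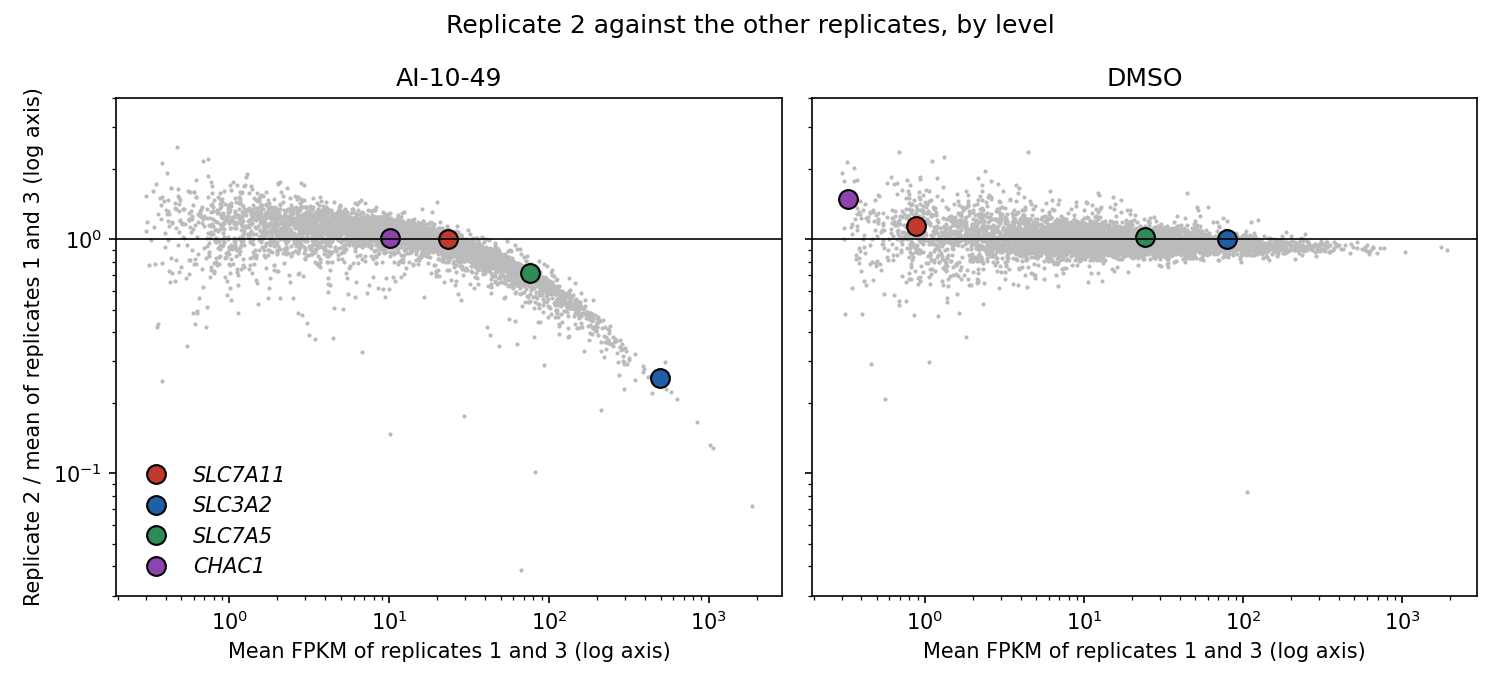
Ratio of replicate 2 to the mean of replicates 1 and 3 (vertical log axis) against that mean in FPKM (horizontal log axis) for rows of at least 0.3 FPKM and above 0 in replicate 2, AI-10-49 left and DMSO right, with the 4 genes as coloured points. With AI-10-49 the cloud bends down at high levels and SLC3A2 (0.255) and SLC7A5 (0.717) lie on it, while with DMSO it stays near 1.

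Ranks within a library do not depend on a bend that keeps the order of rows. AI-10-49 replicate 2 did not keep it exactly, since rows of like level spread widely in their ratio. Its ranks carry that limit. By FPKM among the 6339 rows, SLC3A2 ranked 10, 9 and 10 in AI-10-49 replicates 1, 2 and 3, and 556, 520 and 554 in the DMSO libraries. The AI-10-49 library with the low FPKM thus placed SLC3A2 no lower than the other two did. SLC7A5 ranked 448, 403 and 498 with AI-10-49 and 2151, 2008 and 2084 with DMSO. SLC7A11 ranked 2265, 2080 and 2135 with AI-10-49 and 6049, 6056 and 6130 with DMSO, and CHAC1 3825, 3998 and 3942 with AI-10-49 and 6247, 6254 and 6315 with DMSO. In all 4 genes the 3 ranks of a group lay far closer to each other than to those of the other group. That gap follows from how the genes were chosen, so nothing is read from it. In FPKM the groups did not overlap in 96.2% of all tested rows.

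**Figure D3:**
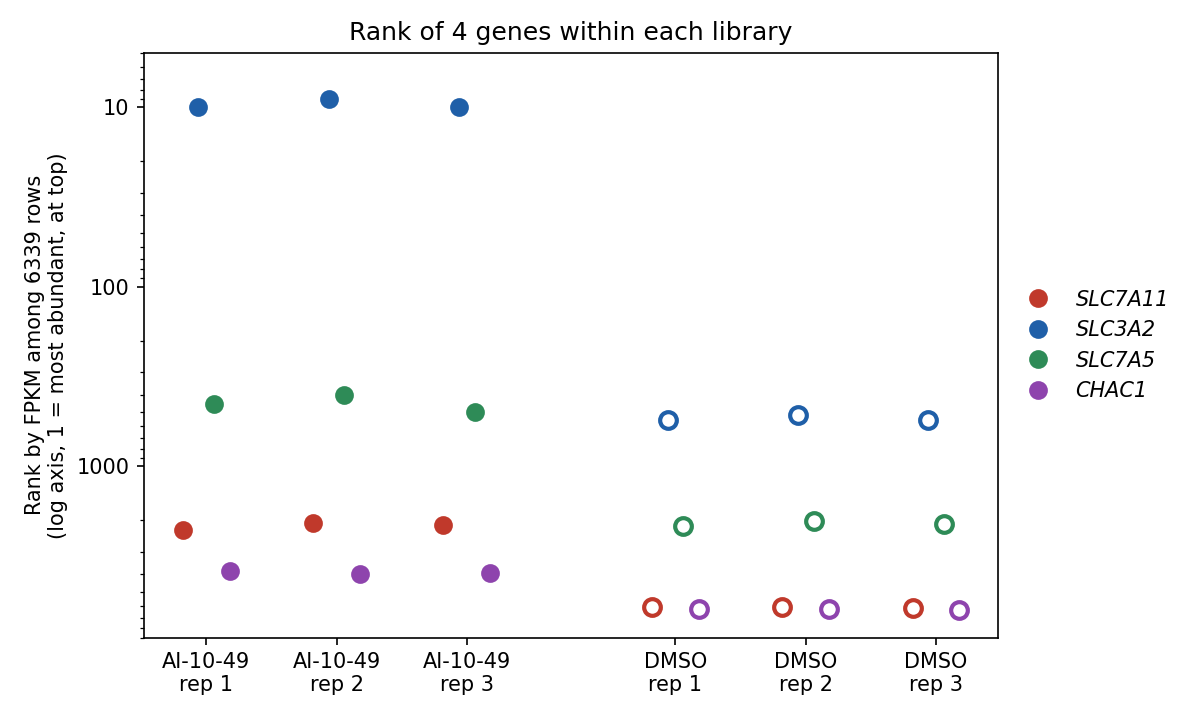
Rank by FPKM of the 4 genes among 6339 rows in each library (log axis, most abundant at the top), with AI-10-49 libraries as filled points at left and DMSO libraries as open points at right. SLC3A2 stands at rank 9 or 10 in all AI-10-49 libraries, AI-10-49 replicate 2 included, and at 520 to 556 in DMSO libraries.

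The ratio of heavy to light chain mRNA was taken within each library. In AI-10-49 replicate 2, which read abundant rows low, the ratio of FPKM cannot be read as chain balance. SLC3A2 over SLC7A5 FPKM was 6.26, 2.29 and 6.62 in AI-10-49 replicates 1, 2 and 3, and 3.22, 3.20 and 3.31 in the DMSO libraries. AI-10-49 replicate 2 thus lay below the DMSO libraries and the other AI-10-49 libraries above them. Quantile normalization gives all libraries 1 distribution but keeps the order of rows, so the limit on the ranks of AI-10-49 replicate 2 holds here too. After it the ratio was 5.45, 5.27 and 5.84 with AI-10-49 and 2.93, 2.86 and 2.85 with DMSO. The groups no longer overlapped. With SLC7A11 added to SLC7A5, the ratio of FPKM was 3.82 ± 1.92 with AI-10-49 and 3.13 ± 0.08 with DMSO (SD, n = 3 each), and AI-10-49 replicate 2, at 1.61, lay below every DMSO library. The normalized ratio was 4.26 ± 0.16 with AI-10-49 and 2.77 ± 0.03 with DMSO (SD, n = 3 each), so the heavy chain read above the 2 light chains together in both groups. The ratio between these 2 light chains differed more. After normalization SLC7A5 over SLC7A11 was 3.40 ± 0.24 with AI-10-49 and 25.1 ± 2.88 with DMSO (SD, n = 3 each). Before normalization it was 3.49, 2.35 and 3.07 with AI-10-49 and 23.7, 24.7 and 32.6 with DMSO. The DMSO ratios rest on a low SLC7A11 level, with a mean of 0.923 FPKM. SLC7A6 and SLC7A7, further light chains of SLC3A2 described below, were left out of these ratios.

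Likeness of pattern was measured as the root mean square difference over the 6 libraries of log2(FPKM + 1) minus its DMSO mean, and the 3 closest rows of each gene are given as a description. SLC7A11 was closest to ATF3 (difference 0.16), a stress-induced transcription factor, GRASP (0.24) and JUN (0.31), a subunit of AP-1. CHAC1 was closest to YPEL4 (0.09), NR4A2 (0.13), an orphan nuclear receptor, and SYTL3 (0.14). This likeness depends on the pseudocount of 1, which shrinks the change of low genes most. NR4A2 averaged 25.1 FPKM with AI-10-49 and 2.08 FPKM with DMSO, and CHAC1 10.2 and 0.383 FPKM. SLC3A2 was closest to the heat shock gene HSPA1A (0.21), CABLES1 (0.39) and the chemokine gene IL8 (0.41), and SLC7A5 to TTC7A (0.04), KLF6 (0.07) and RCSD1 (0.08). HSPA1A stood at 88.8, 26.9 and 96.9 FPKM in AI-10-49 replicates 1, 2 and 3 and at 17.0, 17.3 and 20.5 FPKM in the DMSO libraries. It therefore shares the low AI-10-49 replicate 2 with SLC3A2, and HSPA1A and its near copy HSPA1B cannot be told apart with certainty. Between the 4 genes, SLC7A11 and CHAC1 were the closest pair (0.46) and SLC7A11 and SLC7A5 the farthest (1.58). The pseudocount enters these distances too: the ratios of mean FPKM of SLC7A11 and CHAC1, 25.4 and 26.5, were nearly equal.

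The other genes of the pathways were taken from 10 lists, and here limma's test with Benjamini-Hochberg adjustment over all tested rows applies. Since 95.3% of all tested rows passed, 46.2% higher and 49.1% lower with AI-10-49, passing alone sets no list gene apart. The list counts are to be read beside these shares. With AI-10-49 replicate 2 left out, 97.4% of tested rows passed, 46.4% higher and 51% lower with AI-10-49. Among the other SLC3 and SLC7 genes 3 of 12 had a row. The cationic amino acid carrier SLC7A1 rose, at 38.2 ± 2.76 FPKM with AI-10-49 and 29.3 ± 1.27 FPKM with DMSO (SD, n = 3 each; log2 fold change 0.37, adjusted p = 0.000737). SLC7A6, another light chain that pairs with SLC3A2, fell, at 6.20 ± 0.60 FPKM with AI-10-49 and 11.1 ± 0.33 FPKM with DMSO (log2 fold change -0.75, adjusted p = 9.47e-07). SLC7A7, also a light chain of SLC3A2, passed at a low level (log2 fold change 0.36, adjusted p = 0.0372). Its adjusted p was 0.113 with AI-10-49 replicate 2 left out and 0.00512 to 0.254 over all alternatives.

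Genes listed as other amino acid and peptide carriers moved both ways, with 5 of 12 measured higher, 6 lower and 1 not past the threshold. Over all tested rows 46.2% were higher and 49.1% lower. The list median log2 fold change was -0.05 against -0.28 over all tested rows. SLC1A4, a carrier of alanine, serine and cysteine, had 51.9, 42.4 and 50.8 FPKM with AI-10-49 and 21.1, 20.3 and 21.5 FPKM with DMSO (log2 fold change 1.16, adjusted p = 7.34e-08). The facilitative leucine carrier SLC43A2 rose by 1.15 on the log2 scale. SLC16A10 (-0.81), an aromatic amino acid carrier, fell. SLC43A3, on the list but not known to carry amino acids, fell too (-0.94, or -0.53 after quantile normalization). The neutral amino acid exchanger SLC1A5 was the member that did not pass (log2 fold change 0.43, adjusted p = 0.144), and it was named after its values were seen. Its levels were 167, 92.2 and 171 FPKM with AI-10-49 and 95.3, 103 and 108 FPKM with DMSO, and without AI-10-49 replicate 2 it passed (log2 fold change 0.72, adjusted p = 2.87e-06).

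Of the glutathione synthesis genes, GCLM had a row. GCLM, the modifier subunit of glutamate-cysteine ligase, had 13.8, 13.4 and 13.7 FPKM with AI-10-49 and 5.50, 6.44 and 6.63 FPKM with DMSO. Its groups did not overlap and it rose (log2 fold change 1.03 ± 0.07 SE, adjusted p = 5.31e-08). The catalytic subunit gene GCLC and GSS were not analysed here.

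CHAC1 was higher, and the other genes of glutathione breakdown with a row were lower, 3 of 3 measured of 13 on the list. Over all tested rows 49.1% were lower, and the list median log2 fold change of -0.37 lay near the -0.28 of all tested rows. The count past the threshold was 2 after quantile normalization and when a single DMSO library was left out. CHAC2 was not analysed here. GGT5, a gamma-glutamyltransferase family member, had 9.37, 9.98 and 9.06 FPKM with AI-10-49 and 14.3, 15.2 and 14.2 FPKM with DMSO (log2 fold change -0.57, adjusted p = 3.31e-06). CNDP2, a dipeptidase that splits Cys-Gly, fell by 0.37 (adjusted p = 0.000201). GGCT, which acts on gamma-glutamyl amino acids, gave -0.33 (adjusted p = 0.0424), and -0.03 after quantile normalization, where its adjusted p of 0.573 was the highest of a range from 0.0142.

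Genes that use or reduce glutathione fell in 8 and rose in 2 of 15 measured members, and 5 did not pass. Over all tested rows 49.1% were lower and 46.2% higher. The median log2 fold change was -0.60, or -0.39 without AI-10-49 replicate 2, against -0.28 or -0.21 over all tested rows. The glutathione S-transferase genes GSTM2 (-0.95) and MGST1 (-0.83) and the mitochondrial glutaredoxin gene GLRX5 (-0.95) fell, and GSTZ1 rose by 0.68. Without AI-10-49 replicate 2, GSTM2 gave -0.88, MGST1 -0.61, GLRX5 -0.81 and GSTZ1 0.67. The list holds very abundant genes that AI-10-49 replicate 2 reads low, such as GPX1, named after its values were seen, at 472, 113 and 457 FPKM with AI-10-49 and 546, 534 and 649 FPKM with DMSO (adjusted p = 0.52). Without that library 12 of the 15 were lower and 2 higher.

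In the thioredoxin and peroxiredoxin system 5 of 6 measured members were lower, against 49.1% of all tested rows. The list median log2 fold change was -0.74, or -0.49 without AI-10-49 replicate 2, against -0.28 or -0.21 over all tested rows. PRDX4, the peroxiredoxin of the endoplasmic reticulum, had 18.7, 16.2 and 17.8 FPKM with AI-10-49 and 74.7, 75.2 and 83.9 FPKM with DMSO (log2 fold change -2.09, adjusted p = 4.56e-10). Thioredoxin, TXN, fell by 0.90 and PRDX1 by 1.58 on the log2 scale. TXN and PRDX1 gave -0.60 and -0.84 after quantile normalization, and -0.65 and -1.18 without AI-10-49 replicate 2. The calls of PRDX1 and PRDX3 (-0.58) were lost when any 1 DMSO library was left out, with log2 fold changes of -1.63 to -1.52 and -0.63 to -0.51 and larger standard errors, which left 3 of 6. PRDX3 also lost its call after quantile normalization (log2 fold change -0.07, adjusted p = 0.192, the highest over its alternatives, which started at 0.0018). Without AI-10-49 replicate 2 the count was 6 of 6.

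The methionine cycle and transsulfuration, which make cysteine from methionine, split into 3 of 7 measured genes higher and 4 lower. That split was close to the 46.2% higher and 49.1% lower of all tested rows. The list median log2 fold change of -0.24 was likewise close to the -0.28 of all tested rows. MAT2A, which makes S-adenosylmethionine, had 42.3, 34.1 and 39.9 FPKM with AI-10-49 and 186, 202 and 188 FPKM with DMSO (log2 fold change -2.28, adjusted p = 5.01e-08). CBS, which commits homocysteine to cysteine synthesis, had 26.0, 26.3 and 26.8 FPKM with AI-10-49 and 10.8, 10.6 and 11.9 FPKM with DMSO (log2 fold change 1.18, adjusted p = 4.72e-09). The methionine cycle genes MAT2A and MTR (-0.65) were thus lower and the first transsulfuration gene CBS higher. GOT1, an aspartate aminotransferase, rose by 1.30.

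Among regulators of the ATF4 and NRF2 responses 10 of 14 measured genes were higher and 4 lower, with a median log2 fold change of 1.01. Over all tested rows 46.2% were higher and 49.1% lower, with a median of -0.28. The 4 lower genes, named after their values were seen, were NFE2L1 (-0.58), KEAP1 (-0.57), EIF2AK4 (-0.56) and EIF2AK1 (-0.37). ATF3 had 49.6, 43.0 and 55.2 FPKM with AI-10-49 and 3.28, 3.10 and 3.44 FPKM with DMSO (log2 fold change 3.55 ± 0.08 SE, adjusted p = 9.18e-12). DDIT3, which encodes the stress factor CHOP, rose by 2.81, the pseudokinase gene TRIB3 by 2.61 and MAFF, a small MAF partner of NRF2, by 2.89. NFE2L2, which encodes NRF2, had 29.8 ± 1.44 FPKM with AI-10-49 and 16.9 ± 1.02 FPKM with DMSO (SD, n = 3 each; log2 fold change 0.78, adjusted p = 3.80e-07). ATF4 itself was not analysed here.

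Amino acid sensing genes act upstream of mTORC1, the growth kinase complex that responds to leucine. In this list 9 of 12 measured members were higher and 3 lower, with a median log2 fold change of 0.49. Over all tested rows 46.2% were higher and 49.1% lower, with a median of -0.28. SESN2, a leucine sensor that restrains mTORC1, had 41.8, 36.3 and 42.7 FPKM with AI-10-49 and 4.47, 4.22 and 5.20 FPKM with DMSO (log2 fold change 2.87, adjusted p = 2.78e-11). The mTORC1 inhibitor gene DDIT4 rose by 1.73, and FNIP1 (1.08) and FLCN (0.73), which form a complex on the lysosome, rose as well.

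Genes of lipid peroxidation and iron handling bear on the cell death that follows loss of glutathione. In this list 5 of 9 measured members were higher and 4 lower, against 46.2% and 49.1% of all tested rows. The list median log2 fold change was 0.36, against -0.28 over all tested rows. HMOX1, haem oxygenase, had 12.2, 13.4 and 12.3 FPKM with AI-10-49 and 0.537, 0.741 and 0.823 FPKM with DMSO (log2 fold change 3.01 ± 0.09 SE, adjusted p = 3.48e-11; 4.01 with a pseudocount of 0.1). SAT1, of polyamine breakdown, rose by 1.43 and PTGS2, a prostaglandin synthase gene, by 1.04, or 1.81 with a pseudocount of 0.1. DHODH, a mitochondrial enzyme of pyrimidine synthesis, fell by 1.33 on the log2 scale.

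**Figure D4:**
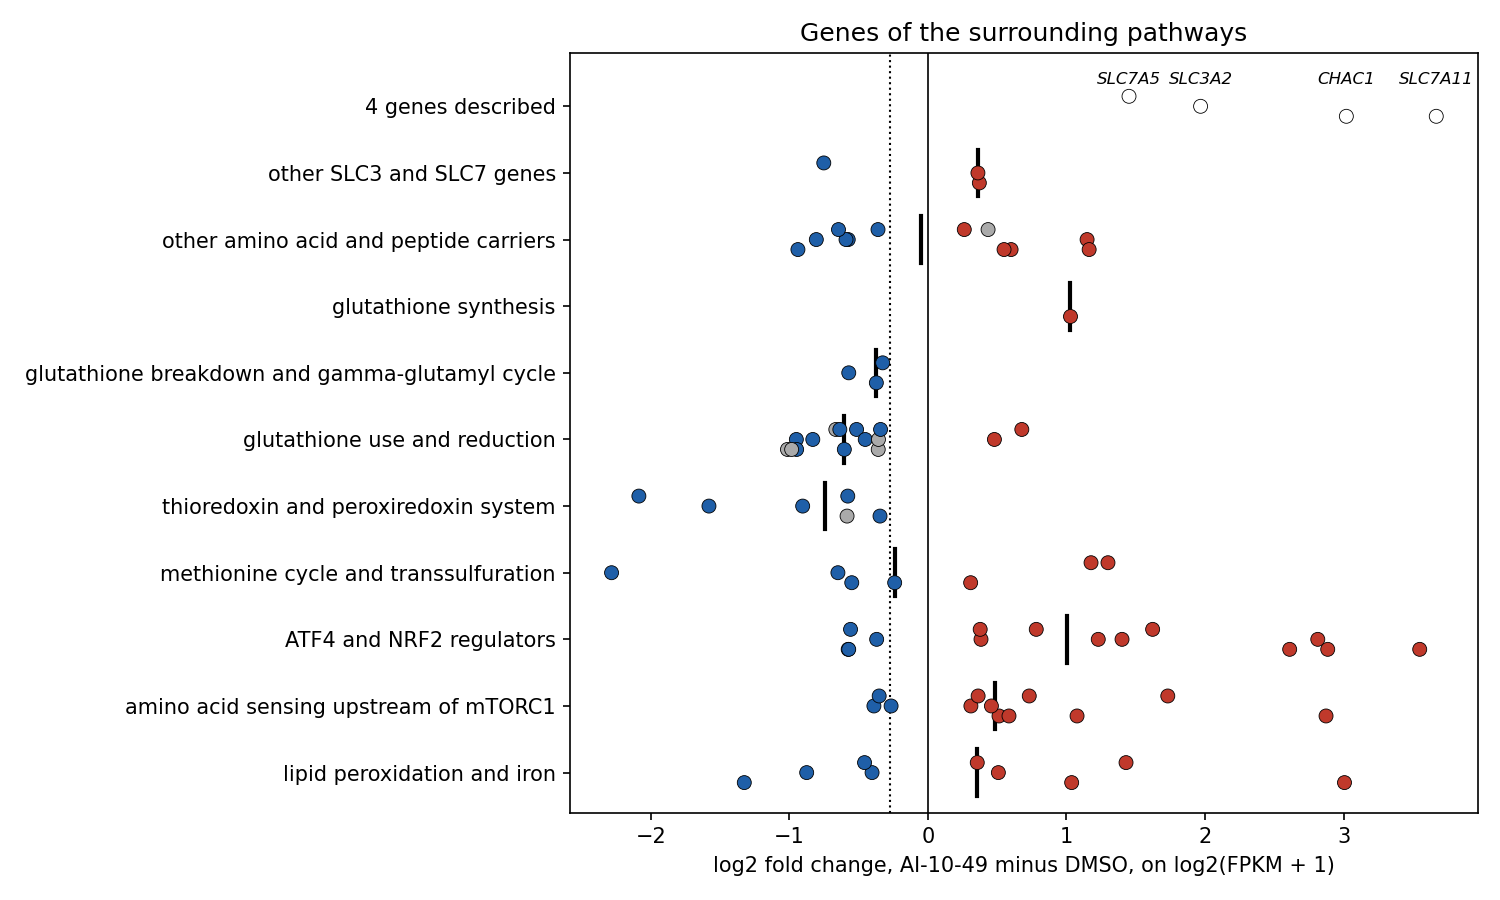
Log2 fold change (AI-10-49 minus DMSO, on log2(FPKM + 1)) of the 4 genes described (open points, no test) and of the measured genes of 10 lists, coloured red where higher and blue where lower past an adjusted p of 0.05 and grey otherwise, with list medians as vertical bars and the median of all tested rows (-0.28) dotted. Of the ATF4 and NRF2 regulators ATF3 (3.55) lies between CHAC1 (3.02) and SLC7A11 (3.67) and the others lie left of CHAC1. Without AI-10-49 replicate 2, which is not drawn, DDIT3 reached 3.10 against 3.02 for CHAC1. Measured thioredoxin and peroxiredoxin genes lie below 0.

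Some reads can belong to other transcripts. In GENCODE version 29, SLC7A11-AS1 lies on the opposite strand of SLC7A11, and 7.27% of the 90-base windows of the longest SLC7A11 transcript also occur in it. The labels do not say whether counting used strand, so reads of the pair may not be told apart. SLC7A5 shares 2.27% of such windows with the pseudogene SLC7A5P2 and as many with SMG1P3, and CHAC1 and SLC3A2 share none with another gene. AC126696.2, on the opposite strand of SLC7A5, shares 0.63% of its windows, so the same limit holds there, and MIR6775 lies in SLC7A5 on the same strand.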

How the data were processed

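Gene expression was measured by RNA-seq in 3 AI-10-49 and 3 DMSO libraries of ME-1 cells, grouped by the labels. Per the submitters' processing notes, the tools included Cufflinks 2.2.0, Bowtie2 2.1.0 and Cuffdiff, and the genome build was hg19. The authors deposited FPKM, 1 column per library. The columns read control and treated with a replicate number and were matched to the labelled DMSO and AI-10-49 libraries. No 2 libraries shared more than 2 equal values. Reads could not be recovered: of 391 rows averaging under 1.5 FPKM, at most 11 shared a ratio between DMSO libraries within 0.1%. The depth is therefore unknown, and no interval that needs it is given.

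Values were moved to log2(FPKM + 1) and fitted with limma 3.58.1 in R 4.3.3 (mean-variance trend, two-sided, Benjamini-Hochberg over the 6230 rows that averaged 1 FPKM or more in either group, threshold 0.05), AI-10-49 minus DMSO. List genes were counted where 1 row carried that symbol alone. The members, 10 lists and tests were chosen with earlier results of these data known. Genes named from a list are the 4 of largest change past the threshold, plus ATF3, DDIT3, NFE2L2 and GCLM, unless marked otherwise. Nearly all rows of the table differ between the groups. Whether rows were selected on these samples is not stated in the labels, and the p-values hold within the table only. Plots and summaries used Python 3.11.15, NumPy 2.4.6, pandas 2.3.3 and Matplotlib 3.10.9. Alternatives are given in the closing section.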

Additional observations from a re-analysis of the deposited data

How the results depend on the processing

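All alternatives were planned except 1 chosen after seeing the data, quantile normalization without AI-10-49 replicate 2. Pseudocounts of 0.5 and 0.1 raised the log2 fold change of SLC7A11 to 4.08 and 4.53 and of CHAC1 to 3.61 and 4.46, by construction. Leaving out single libraries gave 3.61 to 3.70 for SLC7A11, 1.64 to 2.62 for SLC3A2, 1.35 to 1.61 for SLC7A5 and 2.93 to 3.08 for CHAC1. Quantile normalization gave 2.63 for SLC3A2 (2.87 without AI-10-49 replicate 2) and a mean SLC3A2 ratio with DMSO of 2.88 to SLC7A5 and 2.77 to both light chains. The thioredoxin list counted 3 to 6 genes past the threshold when single libraries were left out and 3 at a threshold of 0.01. Rows past the threshold numbered 5730 to 6067 when single libraries were left out, 5018 to 6037 otherwise, and 6015 with the replicate number as a block. The block cannot change a fold in this balanced design, and it took the call from PRDX1 (log2 fold change -1.58, adjusted p = 0.0667, against 7.32e-09 to 0.121 over its alternatives). Deviations of same-numbered libraries correlated at -0.15, 0.147 and 0.247 across rows. With 3 libraries per group these values cannot decide whether the numbers mark pairs, and the main fit did not treat them as pairs. AI-10-49 replicates 2 and 3 correlated best with their own number, and replicate 1 with DMSO replicate 3. Of 538 alternative values of 36 named list genes, 22 lost the call, in SLC7A7, GGCT, PRDX1 and PRDX3, and none reversed. With the depth unknown, only the spread between libraries measures the precision of low values such as CHAC1 with DMSO.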

Other observations

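MAFK, which encodes another small MAF partner of NRF2, stood on 2 rows and was therefore left out of the counts; it was named after its values were seen. In contrast to MAFF it was lower on both rows. The first row had 20.8, 19.9 and 18.1 FPKM with AI-10-49 and 35.9, 32.8 and 35.3 FPKM with DMSO (log2 fold change -0.79, limma adjusted p = 5.64e-07). The second had 0.620, 0.525 and 0.555 FPKM with AI-10-49 and 2.46, 3.38 and 1.97 FPKM with DMSO (log2 fold change -1.18, limma adjusted p = 3.48e-06). The labels do not say what separates the 2 rows.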
